A study of Mus musculus with 6 samples.

Results

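Microglia, the resident macrophages of the brain, and the macrophages that line its borders were followed here through 30 of their marker genes in mouse neocortex at embryonic day 18.5. The genes were taken by symbol from a table of 23420 genes, 29 under the listed name and Spi1 under its older symbol Sfpi1, and all 30 passed the filter on low counts. The libraries came from 3 pools of Tshz3 mutant neocortex and 3 pools of wild-type neocortex, each pool holding cortices of 3 to 4 embryos from several litters. Tshz3 encodes a zinc finger transcription factor, and the labels give neither the part of the gene that was mutated nor the strain.

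Library totals ran from 18569383 to 24147810 counts, and 14618 genes were tested. Tshz3 itself stood at 89.8, 93.1 and 99.2 CPM (counts of a gene relative to its library's scaled total) in mutant pools 1 to 3, against 78.7, 83.0 and 89.3 CPM in wild-type pools 1 to 3 (edgeR adjusted p = 0.669). The count for the whole gene thus did not check the genotype labels. The cortical neuron genes Tbr1, Bcl11b and Neurod2 were all abundant, with a lowest value of 229 CPM in any pool. Where nothing else is said, tests are edgeR's quasi-likelihood test of mutant over wild type with Benjamini-Hochberg adjustment over all 14618 genes.

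Microglia descend from yolk sac progenitors that enter the brain before birth and depend on the growth factor receptor encoded by Csf1r. They scan the tissue with purinergic and chemokine receptors, take up dying cells and synapses, and make complement C1q. Border macrophages live in the meninges, around vessels and in the choroid plexus, share much of this programme, and carry in addition genes such as the mannose receptor gene Mrc1. In a piece of tissue, fewer such cells and less RNA per cell cannot be told apart.

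No member passed the test. The smallest adjusted p of the 30 was 0.813, and 0 of 30 were called where 0.0752% of all tested genes were, 0.0479% as higher and 0.0274% as lower. None had an unadjusted p under 0.05, against 7.09% of all tested genes. DESeq2 called 0 members and 106 genes in all, or 0.725%. When libraries of the same number were paired by a block in the model, 0 of 30 members and 3.46% of all tested genes were called, 1.97% as higher and 1.49% as lower, and the smallest adjusted p of a member was 0.122. With pairing, 17.9% of tested genes and 4 members had an unadjusted p under 0.05, all in the lower direction, namely C1qa, Aif1, Mrc1 and Pf4, against 8.51% of tested genes in that direction.

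What the members did show was a difference in spread between pools. Mrc1, Pf4 and F13a1, the border macrophage genes, varied 5.58-fold to 12.6-fold between the highest and the lowest pool, across genotypes, whereas each of the other 27 varied between 1.29-fold and 2.57-fold. The median range was 1.68-fold over these 27 and 1.29-fold over all genes tested and above 0 in every pool. The 3 border genes were lowest in pool 3 of both genotypes. Among all genes tested and above 0 in every pool, 1.49% reached a 5-fold range, and 3 of 30 members did. A 2-fold range was reached by 12.3% of these genes and by 7 members, the other 4 being Spi1, Tmem119, Cd14 and Tlr2. Counting error widens this ratio at low counts, and the members were not matched to other genes by level. At the mean count this error was 18.1% for Spi1, 14.3% for Tmem119, 28.3% for Cd14 and 24.1% for Tlr2. It was 8.22% for Mrc1, 8.74% for F13a1, 18.6% for Pf4 and 4.92% for Csf1r. The part of counting error in the members' ranges was not tested.

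**Figure D1:**
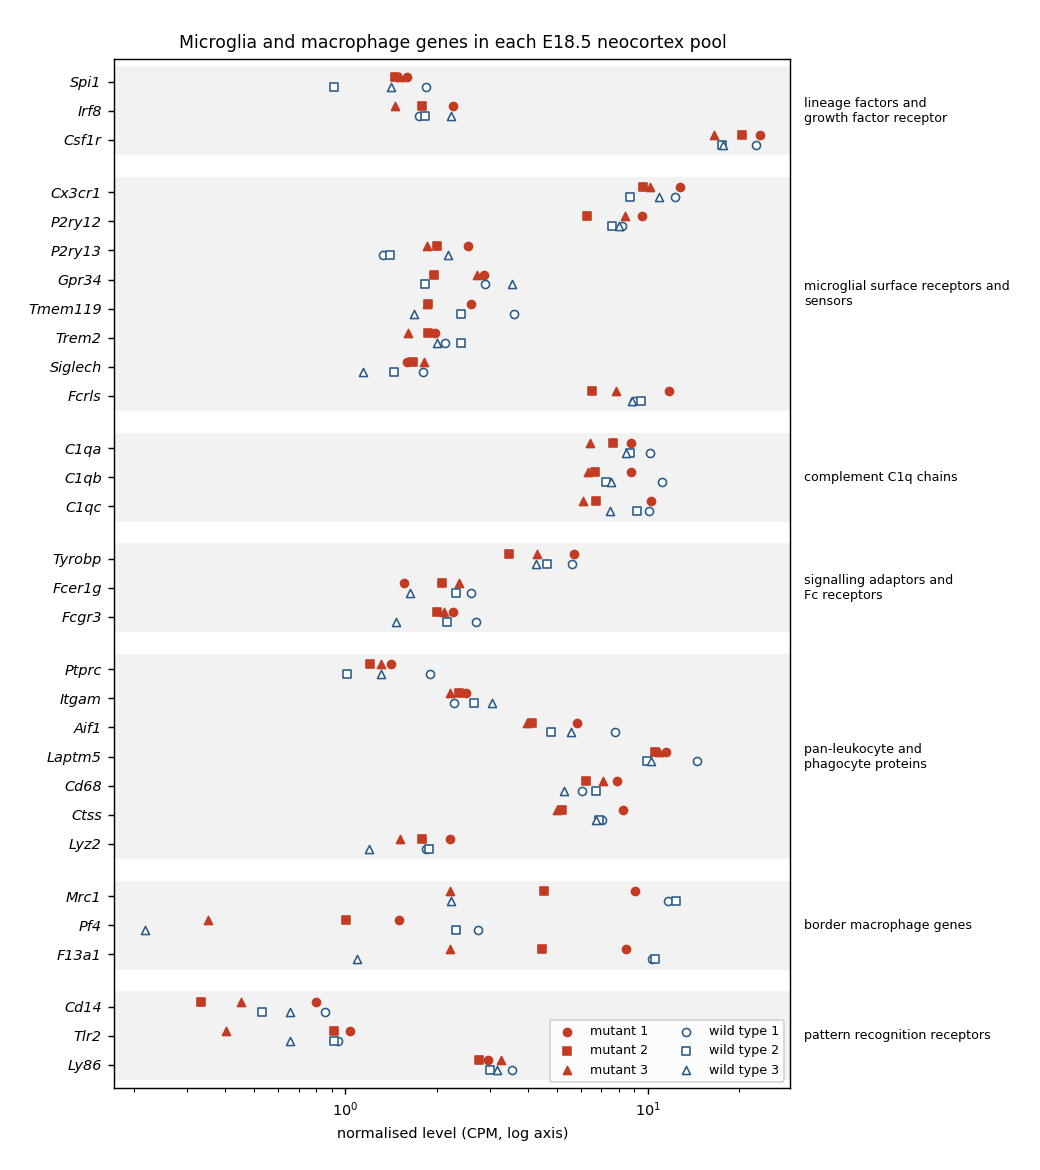
Normalised level (CPM, log axis) of each of the 30 genes in each pool, ordered by role. Filled red marks are mutant pools and open blue marks wild-type pools, with a circle, square and triangle for pools 1, 2 and 3. The marks of most genes lie close together and intermix, while those of Mrc1, Pf4 and F13a1 spread widely, with both pool 3 triangles lowest.

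The 200 bases before the RefSeq transcription start (GRCm38.p6) of the border genes are shown, with 3 other members that stayed within a 2-fold range for comparison. Whether these promoters bear on the pattern over the pools was not tested. Capitals mark the letters GAGGAAG or, on the other strand, CTTCCTC, a core of the sequence bound by PU.1, the product of Spi1. The windows are chr2:14229214-14229413, plus strand, for Mrc1; chr5:90772235-90772434, plus strand, for Pf4; chr13:37050245-37050444, minus strand, for F13a1. Those of the other members are chr17:48346201-48346400, plus strand, for Trem2; chr4:136886201-136886400, minus strand, for C1qb; and chr3:59262986-59263185, minus strand, for P2ry12.
Mrc1: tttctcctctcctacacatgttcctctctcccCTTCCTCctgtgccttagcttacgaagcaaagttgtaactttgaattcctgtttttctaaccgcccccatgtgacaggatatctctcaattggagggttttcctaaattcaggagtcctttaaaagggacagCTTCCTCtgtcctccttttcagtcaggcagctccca
Pf4: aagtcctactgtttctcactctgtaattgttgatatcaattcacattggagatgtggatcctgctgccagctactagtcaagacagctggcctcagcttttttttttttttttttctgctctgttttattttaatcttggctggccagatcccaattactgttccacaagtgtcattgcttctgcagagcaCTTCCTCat
F13a1: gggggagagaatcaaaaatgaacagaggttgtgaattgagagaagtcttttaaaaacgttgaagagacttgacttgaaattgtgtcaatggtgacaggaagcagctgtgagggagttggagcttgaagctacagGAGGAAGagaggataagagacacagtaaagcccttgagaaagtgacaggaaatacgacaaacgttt
Trem2: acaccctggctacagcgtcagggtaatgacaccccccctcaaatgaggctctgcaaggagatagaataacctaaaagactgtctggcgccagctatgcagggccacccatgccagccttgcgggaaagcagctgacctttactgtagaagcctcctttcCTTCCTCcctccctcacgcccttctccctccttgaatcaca
C1qb: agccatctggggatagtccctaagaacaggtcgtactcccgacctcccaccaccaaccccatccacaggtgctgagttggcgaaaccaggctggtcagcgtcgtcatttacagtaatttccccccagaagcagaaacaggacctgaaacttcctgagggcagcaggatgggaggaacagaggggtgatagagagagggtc
P2ry12: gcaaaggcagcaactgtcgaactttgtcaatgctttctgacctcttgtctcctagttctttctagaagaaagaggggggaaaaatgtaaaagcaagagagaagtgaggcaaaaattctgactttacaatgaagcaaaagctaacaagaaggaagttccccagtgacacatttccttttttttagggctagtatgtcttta
The windows of Mrc1, Pf4, F13a1 and Trem2 hold the letters, at 2 places in Mrc1, and those of C1qb and P2ry12 do not. RefSeq promoters were matched for 23 of the 30 members. The letters were found on either strand in 10 of these 23 genes, and in 11 of their 27 promoters, against 8.84% of all 32851 promoters of the table. Besides the 4 genes shown, these were Fcgr3, P2ry13, Fcrls, Laptm5, C1qc and Itgam, which all stayed within a 2-fold range between pools. The motif was chosen as the known binding core of a member's product, a match is no evidence of binding, and the 7 members not matched were Spi1, Csf1r, Gpr34, Tmem119, C1qa, Tyrobp and Cd14.

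Without pairing, the border macrophage genes had the largest fold changes and the widest intervals of the members. With pairing, the log2 fold change was -0.72 (SE 0.26) for Mrc1, -0.48 (SE 0.40) for F13a1 and -0.86 (SE 0.29) for Pf4. Their edgeR adjusted p with pairing was 0.22, 0.631 and 0.122. The paired SEs of Cd14 and Tlr2 were 0.36 and 0.31, above those of Mrc1 and Pf4. Mrc1, which encodes the mannose receptor CD206, was at 9.05, 4.54 and 2.22 CPM in mutant pools 1 to 3, against 11.7, 12.4 and 2.23 CPM in wild-type pools 1 to 3. Its groups overlapped, and pool 3 was the lowest of either genotype by far, at almost the same level in both. The log2 fold change of Mrc1 was -0.73 (SE 0.73, edgeR adjusted p = 0.918), with a 95% interval from -2.52 to 1.05.

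F13a1, which encodes the A chain of coagulation factor XIII, was at 8.44, 4.46 and 2.22 CPM in mutant pools 1 to 3, against 10.3, 10.6 and 1.09 CPM in wild-type pools 1 to 3. Again wild-type pools 1 and 2 were highest and wild-type pool 3 was lowest, below every mutant pool. Its log2 fold change was -0.54 (SE 0.84), with a 95% interval from -2.60 to 1.51. Pf4, the gene of the chemokine platelet factor 4, which platelets also carry, was at 1.51, 1.001 and 0.353 CPM in mutant pools 1 to 3, against 2.75, 2.32 and 0.218 CPM in wild-type pools 1 to 3. The lowest of these values is 4 reads. The log2 fold change of Pf4 was -0.89 (SE 0.80, adjusted p = 0.9), the largest of any member, and its direction differed between same-numbered pools, with log2 ratios of -0.87, -1.21 and 0.70 in numbers 1, 2 and 3.

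Single libraries moved these values by more than 1.5 times. The log2 fold change of Mrc1 was -1.36 without mutant pool 1 and -1.19 without wild-type pool 3, but -0.37 without mutant pool 3, -0.48 without wild-type pool 1 and -0.41 without wild-type pool 2. Over all 6 such fits F13a1 ran from -1.13, without mutant pool 1, to -0.19, without wild-type pool 2, and Pf4 from -1.40, without wild-type pool 3, to -0.43, without wild-type pool 1. Within the same-numbered pools, the log2 ratio of Mrc1 was -0.37, -1.44 and -0.01, and that of F13a1 was -0.29, -1.25 and 1.03. The lower mean of the mutant group in the border genes was therefore carried by numbers 1 and 2 and not by number 3. Summed over the 3 genes, the level was 18.99, 10.01 and 4.78 CPM in mutant pools 1 to 3, against 24.7, 25.3 and 3.54 CPM in wild-type pools 1 to 3, or 11.3 ± 7.19 CPM in mutant and 17.8 ± 12.4 CPM in wild-type neocortex (SD, n = 3 each).

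Markers of the meninges moved with the border macrophage genes. The summed level of 14 meningeal fibroblast genes was 407, 219 and 187 CPM in mutant pools 1 to 3, against 441, 341 and 164 CPM in wild-type pools 1 to 3. Mutant pool 1 and wild-type pools 1 and 2 were the 3 highest pools in both sums, and mutant pool 2, mutant pool 3 and wild-type pool 3 followed in the same order. This order was not particular to the meningeal list. Pericyte and smooth muscle genes had it too, at 131, 120 and 106 CPM in mutant and 145, 136 and 104 CPM in wild-type pools 1 to 3. The endothelial sum had the same 3 highest pools. Of these 14 genes, 10 were lowest in pool 3 of both genotypes, as were 12 of 15 cell division genes, 9 of 12 endothelial genes, 6 of 9 pericyte and smooth muscle genes, 10 of the 30 members and 14.6% of all tested genes, and Pdgfra, Crym and Zic1 of the list are also made by neural cells.

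The fibroblast collagen gene Col1a2 reached 82.2, 26.2 and 15.4 CPM in mutant pools 1 to 3, against 107, 70.2 and 12.4 CPM in wild-type pools 1 to 3. Lum, which encodes the matrix proteoglycan lumican, was at 6.41, 1.63 and 0.907 CPM in mutant pools and 7.40, 4.25 and 0.980 CPM in wild-type pools. Both were picked for display after their values were seen, so they do not stand for the list. Their 3 highest pools were those of Mrc1, namely mutant pool 1 and wild-type pools 1 and 2. The order within these differed, since wild-type pool 2 was highest for Mrc1 but the lowest of the 3 for Col1a2 and Lum. The part of meningeal tissue in the values of the border genes was not tested.

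The sum of choroid plexus genes gave another order. A single gene of this list held 16877 counts in 1 library, where all 8 genes held 50641 over the 6 libraries. In that library the sum was therefore mostly 1 gene, and the order of the other genes is not given. The summed level of 8 of them was 837, 198 and 156 CPM in mutant pools 1 to 3, against 853, 129 and 237 CPM in wild-type pools 1 to 3, so wild-type pool 2, the highest in Mrc1 and F13a1, was the lowest here. Endothelial genes varied less, with sums over 12 genes of 172 to 221 CPM in mutant pools and 175 to 232 CPM in wild-type pools. The 9 pericyte and smooth muscle genes summed to 106 to 131 CPM in mutant pools and 104 to 145 CPM in wild-type pools.

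**Figure D2:**
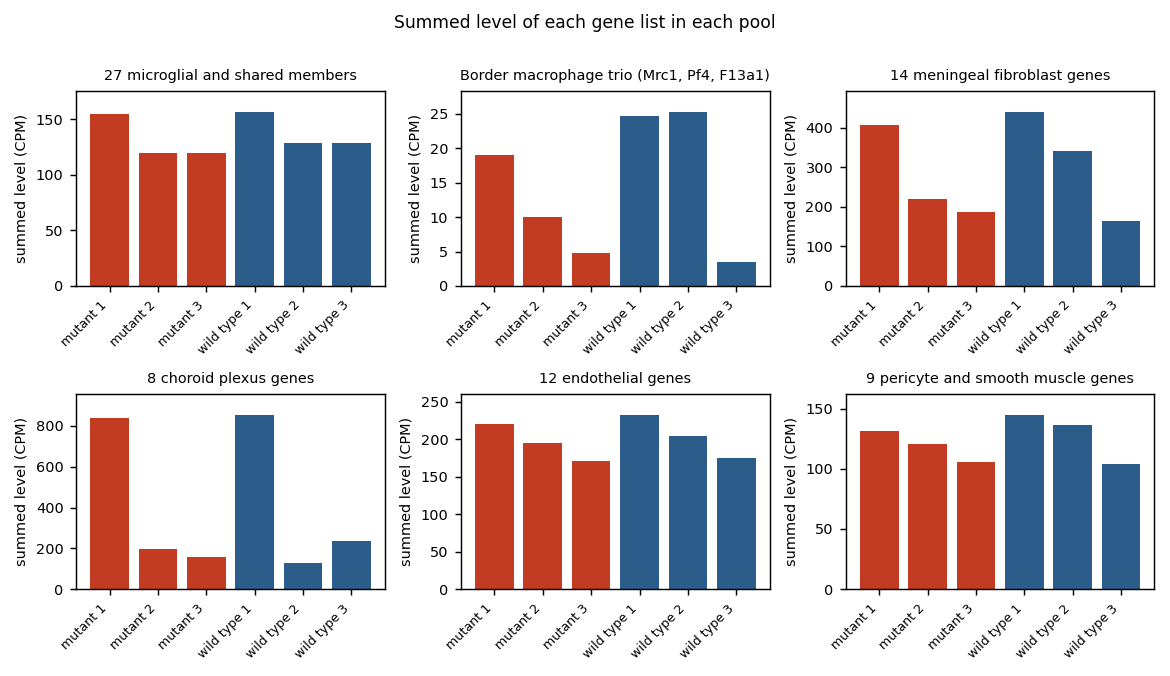
Summed level (CPM, linear axis from 0) of 6 gene lists in each pool, with mutant pools in red on the left and wild-type pools in blue on the right of each panel. The 27 members outside the border group lie between 119 and 157 CPM, while the border trio runs from 3.54 to 25.3 CPM with low bars in both pools numbered 3, as in the meningeal panel.

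Other border macrophage and monocyte genes were mostly rare. Of 24 listed, 23 were found in the table, 10 were tested, 15 stayed under 20 counts in every library, and 0 passed with or without pairing. Lyve1, a hyaluronan receptor gene of border macrophages and lymphatic vessels, was at 5.70, 1.25 and 0.957 CPM in mutant pools 1 to 3, against 5.22, 4.06 and 1.03 CPM in wild-type pools 1 to 3. Cd163, the haemoglobin scavenger receptor gene, was at 1.56, 1.13 and 0.504 CPM in mutant pools, against 1.90, 1.497 and 0.653 CPM in wild-type pools. Both were lowest in pool 3 of each genotype, as were 7 of the 10 tested genes of the list. The list's median log2 fold change was -0.35, against -0.01 over all tested genes. Summed over the 23 genes found, the ratio of mutant over wild type was 0.945, 0.788 and 1.06 in numbers 1, 2 and 3, so the direction differed in number 3. The highest count of 1 gene in 1 library was 840, where all 23 genes held 10627 counts over the 6 libraries. The sum therefore mainly follows the more abundant genes of the list.

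None of the lineage factor, growth factor receptor and surface receptor genes of microglia passed the test, 0 of 11, and 6 of the 11 had a log2 fold change above 0. Csf1r, the receptor for the growth factors CSF1 and IL-34, was at 23.4, 20.4 and 16.6 CPM in mutant pools 1 to 3, against 22.7, 17.5 and 17.7 CPM in wild-type pools 1 to 3. The groups overlapped over nearly their whole range. Its log2 fold change was 0.06 (SE 0.15), and the 95% interval allowed a ratio of mutant over wild type from 0.814 to 1.33. Part of its annotated exon sequence, 873 bases, is shared with Hmgxb3 on the opposite strand, so its count is uncertain because the strand setting of the counting is not given.

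The lineage transcription factor genes were rarer. Spi1, which encodes PU.1 and is needed for all macrophages, was at 1.60, 1.46 and 1.51 CPM in mutant pools 1 to 3, against 1.85, 0.918 and 1.42 CPM in wild-type pools 1 to 3. The mutant pools lay inside the wild-type range. Irf8, a partner factor needed for microglial maturation, ranged from 1.46 to 2.26 CPM in mutant pools and from 1.75 to 2.23 CPM in wild-type pools. Their log2 fold changes were 0.13 (SE 0.29) and -0.07 (SE 0.24).

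Among surface receptors, Cx3cr1, the receptor of the neuronal chemokine fractalkine, was at 12.7, 9.59 and 10.1 CPM in mutant pools 1 to 3, against 12.2, 8.69 and 10.9 CPM in wild-type pools 1 to 3. Pool 1 was the highest in each genotype, and the log2 fold change was 0.03 (SE 0.17, interval -0.36 to 0.41). P2ry12, the ADP receptor that guides microglial processes, was at 9.52, 6.30 and 8.41 CPM in mutant pools, against 8.20, 7.58 and 8.002 CPM in wild-type pools. Its log2 fold change was 0.02 (SE 0.17), and the wild-type values fell inside the mutant range. Fcrls, an Fc receptor-like gene typical of mouse microglia, averaged 8.70 ± 2.72 CPM in mutant and 9.08 ± 0.341 CPM in wild-type neocortex (SD, n = 3 each).

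P2ry13, a second ADP receptor gene, had the highest log2 fold change of the members, 0.39 (SE 0.26, adjusted p = 0.832). It was at 2.55, 2.001 and 1.86 CPM in mutant pools 1 to 3, against 1.33, 1.40 and 2.18 CPM in wild-type pools 1 to 3, and the groups overlapped because of wild-type pool 3. P2ry12 and P2ry13 lie inside Med12l, and Gpr34, another surface receptor gene, inside Cask, each on the opposite strand of its host. Without the strand setting, these counts could include reads from introns of the hosts. Gpr34 ranged from 1.96 to 2.87 CPM in mutant pools and from 1.84 to 3.54 CPM in wild-type pools. Tmem119, a membrane protein gene of mature microglia, ranged from 1.86 to 2.59 CPM in mutant pools and from 1.69 to 3.60 CPM in wild-type pools.

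Trem2, a lipid-sensing receptor of phagocytes, was the 1 member whose groups did not overlap. It was at 1.98, 1.88 and 1.61 CPM in mutant pools 1 to 3, against 2.13, 2.42 and 2.01 CPM in wild-type pools 1 to 3. The gap between the nearest pools was 1.98 against 2.01 CPM, and its log2 fold change was -0.26 (SE 0.20, adjusted p = 0.858, with pairing 0.545). Separation with all mutant pools lower was found for 1 of 30 members, while 6.09% of all tested genes had it, and with all mutant pools higher for 0 of 30, against 7.42%. Siglech, a sialic acid-binding receptor gene, ranged from 1.60 to 1.81 CPM in mutant pools and from 1.14 to 1.802 CPM in wild-type pools.

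The 3 chains of complement C1q, which tags synapses and debris for uptake, gave similar log2 fold changes of -0.26 for C1qa, -0.25 for C1qb and -0.22 for C1qc, and none passed. C1qa was at 8.77, 7.63 and 6.45 CPM in mutant pools 1 to 3, against 10.1, 8.74 and 8.44 CPM in wild-type pools 1 to 3, and the groups overlapped only through mutant pool 1. C1qb was at 8.77, 6.67 and 6.35 CPM in mutant pools, against 11.1, 7.25 and 7.57 CPM in wild-type pools. C1qc was at 10.2, 6.71 and 6.09 CPM in mutant pools, against 10.1, 9.23 and 7.46 CPM in wild-type pools.

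The chains are encoded side by side on chromosome 4 of GRCm38, C1qb from 136880129 to 136886187, C1qc from 136889804 to 136893065 and C1qa from 136895917 to 136898803, all on the minus strand. Summed, they came to 22.6 ± 4.63 CPM in mutant and 26.7 ± 4.16 CPM in wild-type neocortex (SD, n = 3 each). With pairing, the adjusted p was 0.252 for C1qa, 0.296 for C1qb and 0.35 for C1qc. In C1qa and C1qb the mutant pool was below the wild-type pool of its number in all 3 numbers, which held for 6 of 30 members and 19.8% of tested genes, the other 4 being Trem2, Aif1, Mrc1 and Cd14. The mutant pool was above its partner in all 3 numbers in 0 of 30 members and 19.3% of tested genes.

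Tyrobp, the adaptor through which TREM2 signals, was at 5.70, 3.46 and 4.28 CPM in mutant pools 1 to 3, against 5.59, 4.64 and 4.25 CPM in wild-type pools 1 to 3. The groups overlapped, with a log2 fold change of -0.11 (SE 0.22). Fcer1g, the adaptor of Fc receptors, ranged from 1.56 to 2.37 CPM in mutant pools and from 1.63 to 2.61 CPM in wild-type pools. Fcgr3, a low-affinity IgG receptor gene, averaged 2.13 ± 0.131 CPM in mutant and 2.12 ± 0.618 CPM in wild-type neocortex (SD, n = 3 each). Its relative Fcgr2b held at most 21 counts in a library and Fcgr4 at most 3.

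Of the general leukocyte and phagocyte genes, Laptm5, which encodes a lysosomal membrane protein, was at 11.5, 10.5 and 10.8 CPM in mutant pools 1 to 3, against 14.6, 9.95 and 10.2 CPM in wild-type pools 1 to 3. Wild-type pool 1 stood above the other 5 pools. Aif1, which encodes the microglial marker protein IBA1, was at 5.84, 4.13 and 3.98 CPM in mutant pools, against 7.78, 4.78 and 5.55 CPM in wild-type pools. It had the lowest log2 fold change outside the border genes, -0.38 (SE 0.24, adjusted p = 0.818, with pairing 0.169), and the groups overlapped through mutant pool 1.

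Cd68, a lysosomal glycoprotein gene of phagocytes, went the other way, at 7.92, 6.21 and 7.10 CPM in mutant pools 1 to 3, against 6.07, 6.71 and 5.28 CPM in wild-type pools 1 to 3, with a log2 fold change of 0.23 (SE 0.16, adjusted p = 0.832). Ctss, the gene of the protease cathepsin S, averaged 6.15 ± 1.82 CPM in mutant and 6.89 ± 0.134 CPM in wild-type neocortex (SD, n = 3 each). Lyz2, the macrophage lysozyme gene, ranged from 1.51 to 2.22 CPM in mutant pools and from 1.20 to 1.88 CPM in wild-type pools, and reads of its close copy Lyz1, with 4 to 16 counts per library, could be shared with it.

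Itgam, the CD11b integrin gene, ranged from 2.22 to 2.50 CPM in mutant pools and from 2.28 to 3.05 CPM in wild-type pools, and 3450 bases of its exon sequence are also annotated to the gene model Gm49368. Ptprc, the CD45 phosphatase gene of all nucleated blood cells, ranged from 1.21 to 1.41 CPM in mutant pools and from 1.01 to 1.90 CPM in wild-type pools. Among pattern recognition genes, Ly86, a partner of a Toll-like receptor relative, was at 2.97, 2.75 and 3.27 CPM in mutant pools 1 to 3, against 3.56, 2.99 and 3.16 CPM in wild-type pools 1 to 3. It had the narrowest range of all members, 1.29-fold.

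Cd14, a co-receptor for bacterial lipopolysaccharide, and the Toll-like receptor gene Tlr2 were close to the limit of detection. Cd14 ranged from 0.334 to 0.801 CPM in mutant pools and from 0.531 to 0.853 CPM in wild-type pools, with 75 counts over all 6 libraries. Tlr2 ranged from 0.403 to 1.04 CPM in mutant pools and from 0.653 to 0.948 CPM in wild-type pools, with 103 counts. A count of 3, the most that a library with 0 reads allows, corresponds to 0.125 to 0.163 CPM, which covers counting error only.

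**Figure D3:**
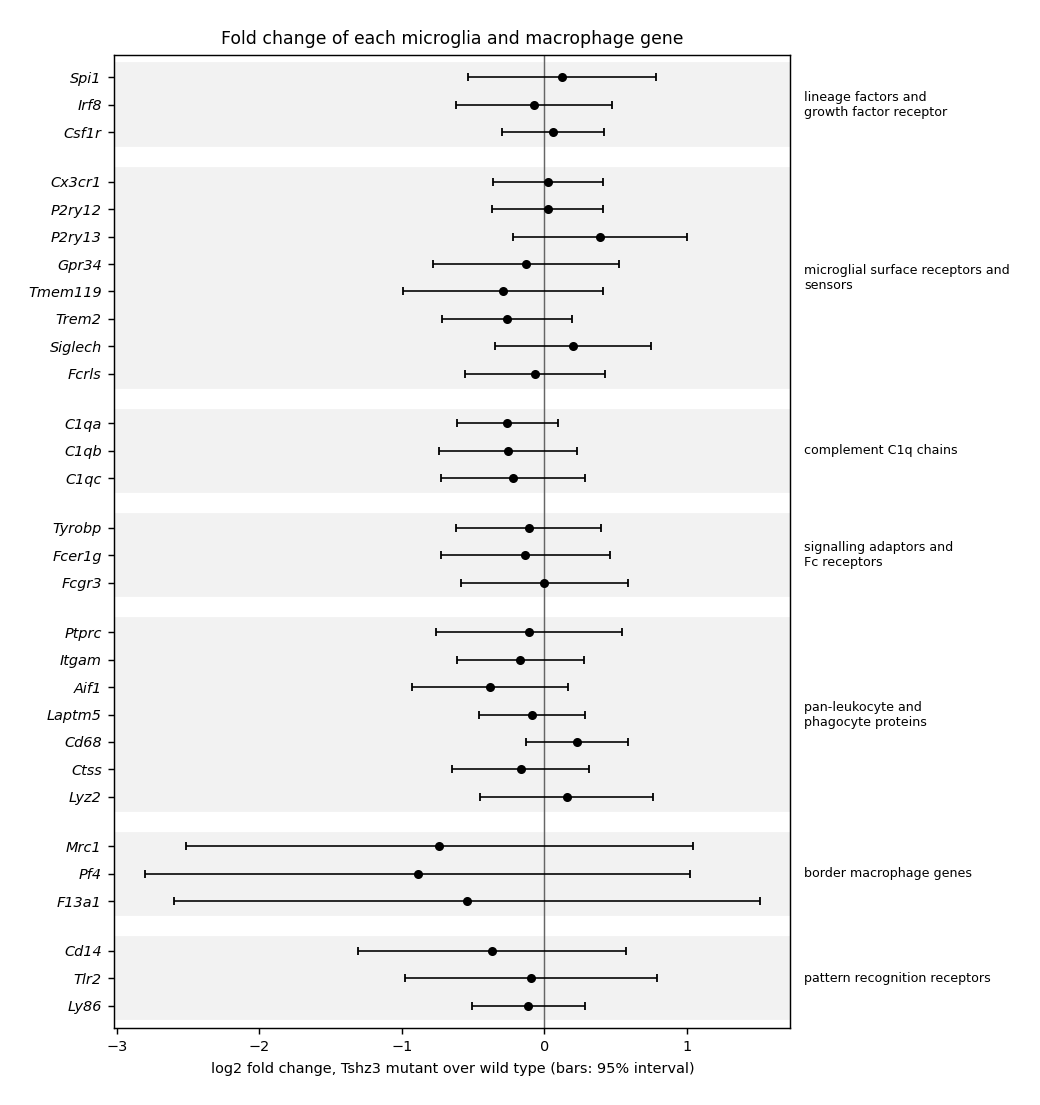
Log2 fold change of each gene, mutant over wild type, with its 95% interval from the edgeR fit without pairing (n = 3 pools per genotype). Every interval includes 0, and the intervals of Mrc1, Pf4 and F13a1 are the widest.

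Across all 30 members, 21 had a log2 fold change below 0 and 9 above 0, where 52.3% of tested genes were below 0. Their median log2 fold change was -0.11, against -0.01 over all tested genes. Members share cells and therefore move together, so these counts do not add up independent evidence. The median over the members was -0.10, -0.14 and -0.05 within numbers 1, 2 and 3. Without single libraries the median ran from -0.24, with mutant pool 1 left out, to -0.01. In 25 members the 95% interval lay within a 2-fold change in either direction, the exceptions being Mrc1, Pf4, F13a1, Cd14 and P2ry13.

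Summed over the 27 members outside the border group, the level was 154, 119 and 120 CPM in mutant pools 1 to 3, against 157, 128 and 128 CPM in wild-type pools 1 to 3. The means were 131 ± 20.2 CPM in mutant and 138 ± 16.3 CPM in wild-type neocortex (SD, n = 3 each), a ratio of 0.953. The mutant sum was below the wild-type sum of its number in all 3 numbers, with ratios of 0.987, 0.932 and 0.932, and over all 30 members these were 0.957, 0.843 and 0.943. Pools numbered 1 stood above the others in both genotypes. Of the 30 members, 24 had their highest value in mutant pool 1 or wild-type pool 1, as did 38.5% of all tested genes. Mutant pool 1 was the highest mutant pool in 27 of 30 members and 37.7% of tested genes, and wild-type pool 1 the highest wild-type pool in 20 of 30 members and 34.7% of tested genes. The sums of the meningeal, choroid plexus, endothelial, cell division, red blood cell and further complement genes were also highest in these 2 pools, and the part of tissue makeup in the members' order was not tested.

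**Figure D4:**
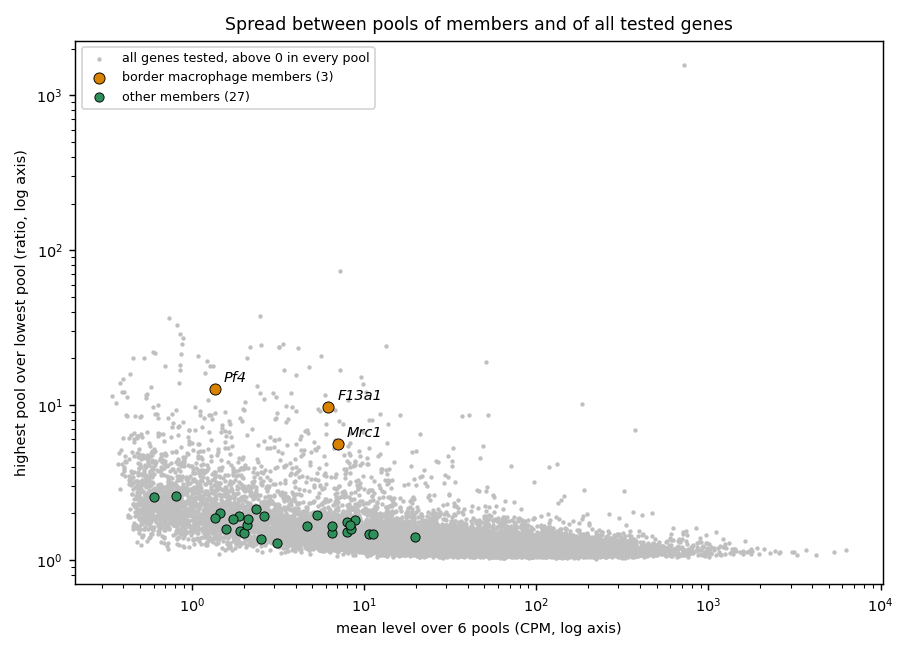
Ratio of the highest to the lowest pool against the mean level over 6 pools, both on log axes, for all tested genes above 0 in every pool (grey), the 27 members outside the border group (green) and the 3 border macrophage members (orange). The green points lie between 1.29 and 2.57, while F13a1, Mrc1 and Pf4 lie at 9.72, 5.58 and 12.6.

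Per kilobase of annotated exon sequence, Tyrobp and the C1q chains were the most abundant members. Tyrobp was at 7.95 ± 2.01 CPM per kilobase in mutant and 8.56 ± 1.23 in wild-type neocortex, and C1qa at 7.32 ± 1.115 in mutant and 8.76 ± 0.876 CPM per kilobase in wild-type neocortex (SD, n = 3 each). C1qb and C1qc followed at 6.67 ± 1.21 and 6.38 ± 1.85 CPM per kilobase in mutant, and at 7.95 ± 1.99 and 7.42 ± 1.118 in wild-type neocortex. Csf1r was at 4.12 ± 0.699 CPM per kilobase in mutant and 3.95 ± 0.603 in wild-type neocortex, behind Aif1, Cd68, Ctss and Laptm5. The lowest levels per kilobase were those of Ptprc, at 0.256 ± 0.02 in mutant and 0.275 ± 0.0878 in wild-type neocortex, and of Tlr2, at 0.261 ± 0.112 and 0.279 ± 0.0538 CPM per kilobase in mutant and wild-type neocortex. The sources used here do not give the annotation behind the counts, so these lengths, from GENCODE M21, are approximate.

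Signals that reach microglia from other cells were measured too, in a list that also holds receptors such as Mertk and the intracellular factor gene Smad3. Of 20 tested genes of this list, 0 passed with or without pairing, and the median over ligands and receptors together was -0.05. Csf1, a ligand of Csf1r, was at 19.8, 13.3 and 11.3 CPM in mutant pools 1 to 3, against 15.6, 16.0 and 10.8 CPM in wild-type pools 1 to 3. Il34, the other ligand, was at 3.68, 2.84 and 2.37 CPM in mutant pools, against 4.31, 3.24 and 2.94 CPM in wild-type pools. Cx3cl1, the fractalkine gene, was at 53.8, 50.7 and 62.2 CPM in mutant pools, against 70.3, 52.0 and 72.3 CPM in wild-type pools, with a log2 fold change of -0.22 (SE 0.14, adjusted p = 0.815, with pairing 0.0892). For all 3 ligands the groups overlapped.

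Of 46 other microglia genes tested, 0 passed without pairing and 1, Sall1, passed with it. Over all 14 lists beyond the members, 4 of 190 tested genes passed with pairing, against 3.46% of all tested genes. Sall1, a transcription factor gene that maintains microglial identity and is also active in neural progenitors, was at 39.7, 44.1 and 42.0 CPM in mutant pools 1 to 3, against 34.0, 37.96 and 31.0 CPM in wild-type pools 1 to 3. Every mutant pool exceeded every wild-type pool, as in 7.42% of all tested genes. The log2 difference was 0.29 (SE 0.09, edgeR adjusted p = 0.483, with pairing 0.0311, DESeq2 0.427). Which cells made this Sall1 RNA was not tested.

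In the complement system beyond C1q, 9 genes were tested, 0 passed edgeR without pairing and Masp1 passed edgeR with it. Masp1 also passed DESeq2, which was run without pairing and called 0.725% of all genes. Masp1, a serine protease gene of the lectin pathway, was at 58.8, 57.6 and 57.2 CPM in mutant pools 1 to 3, against 46.8, 45.02 and 46.5 CPM in wild-type pools 1 to 3, a clear gap with little spread. Its log2 fold change was 0.33 (SE 0.06, edgeR adjusted p = 0.138, with pairing 0.00428, DESeq2 0.00331). Of 9 interferon-induced genes tested, Irf9, a subunit of the interferon-activated transcription factor, passed with pairing only, at a log2 difference of 0.47 (SE 0.19, adjusted p = 0.678, with pairing 0.00323, DESeq2 0.576). Irf9 was at 26.3, 35.1 and 26.4 CPM in mutant pools, against 19.7, 26.8 and 17.1 CPM in wild-type pools, so its groups overlapped while each mutant pool exceeded its same-numbered wild-type pool.

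No gene passed, with or without pairing, among 23 tested genes of lysosome and phagocytosis, with a list median of -0.05, or among 8 tested cytokine and chemokine genes of activated macrophages, with a median of -0.01. Red blood cell genes summed to 238, 233 and 185 CPM in mutant pools 1 to 3, against 284, 172 and 144 CPM in wild-type pools 1 to 3, nearly all of it from the globin gene Hbb-bs, and 0 of 4 tested passed with or without pairing. Of 18 genes of neutrophils, mast cells and lymphocytes, 16 stayed under 20 counts in every library and 3 had 0 in all of them. Kit, a receptor tyrosine kinase gene of mast cells that neurons also express, was the exception in level. It was called lower by edgeR with pairing and by DESeq2, which was run without pairing. It was at 57.5, 55.6 and 55.2 CPM in mutant pools 1 to 3, against 69.0, 71.2 and 69.3 CPM in wild-type pools 1 to 3, at a log2 difference of -0.32 (SE 0.05, adjusted p = 0.138, with pairing 0.00323, DESeq2 0.00334). The mast cell protease gene Cpa3 held at most 13 counts in any library.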

How the data were processed

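RNA of 6 neocortex pools was sequenced after a strand-marking TruSeq preparation, as the labels' protocols state. The deposited table holds raw counts for each gene symbol, not normalized. Per the submitters' processing notes, HTSeq 0.5.3p9, Bowtie2 2.1.0, TopHat2 2.0.9 and CASAVA 1.8.2 were among the tools and mm10 was the build. The sources used here give no settings, annotation or strand option of the counting.

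Counts were fitted with edgeR 4.0.16 (R 4.3.3): TMM scaling, default filtering, a robust quasi-likelihood test, two-sided, at an adjusted p of 0.05 over 14618 genes. CPM use TMM-scaled totals, SDs are over 3 pools, and standard errors and 95% intervals follow from the quasi-likelihood F statistic. DESeq2 1.42.0 was run on the same genes without pairing. The fit recovered 75% of genes changed 2-fold and 10% of those changed 1.3-fold in simulated data for this comparison. The changed genes were drawn at random from all 14618, so these shares do not measure recovery among the members. Lengths and overlaps come from GENCODE M21 (GRCm38), promoters from RefSeq.

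Deviations from group means correlated at 0.61, 0.51 and 0.47 between same-numbered libraries, all above the bound of 0.1. A fit with same-numbered libraries as pairs was therefore run as an alternative. The main fit had no pairs. It gave the edgeR p-values, standard errors and intervals over all libraries wherever pairing is not named. The labels do not say what same-numbered libraries share, and with 3 libraries per group such correlations can arise without true pairs.

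Members and lists were chosen with earlier results of these data known. All 30 members are named. Of the other lists, genes passing with or without pairing are named, besides Csf1, Il34, Cx3cl1, Sall1 and Cd163 (1 further gene of this rule is not reported here), and any other gene was chosen after its values were seen. Of 254 further names in 14 lists, 250 were found. The cell division list gave 0 called genes of 15 tested, and 0 rows named no gene.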

Additional observations from a re-analysis of the deposited data

How the results depend on the processing

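No member passed the threshold in any alternative. The smallest adjusted p of a member was 0.122, for Pf4 with the replicate block, over the alternatives other than the block without a number, for which calls alone were counted. Of 300 recomputed member values, 274 kept their sign. The other 26 all came from fits without 1 library, in 15 members. Without single libraries the log2 fold change ran from -0.10 to 0.39 for Spi1, -0.25 to 0.067 for Irf8, -0.061 to 0.19 for Csf1r, -0.11 to 0.14 for Cx3cr1, -0.11 to 0.18 for P2ry12, -0.35 to 0.086 for Gpr34 and -0.51 to 0.032 for Tmem119. It ran from -0.34 to 0.11 for Fcrls, -0.32 to 0.049 for Tyrobp, -0.30 to 0.020 for Fcer1g, -0.20 to 0.21 for Fcgr3, -0.29 to 0.18 for Ptprc, -0.18 to 0.11 for Laptm5, -0.021 to 0.28 for Lyz2 and -0.32 to 0.21 for Tlr2. Among members that kept their sign, C1qb ran from -0.41 to -0.03 and Aif1 from -0.57 to -0.15. The members' median ran from -0.24 to -0.014 in those fits.

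Over all genes, the 7 higher and 4 lower calls became 288 and 218 with the replicate block, 63 and 43 with DESeq2, and 11 and 9 without the filter on low counts. Leaving out 1 library gave 1 to 21 higher and 2 to 14 lower. With the block and both libraries of number 1, 2 or 3 left out, the counts were 141 and 154, 1119 and 755, and 35 and 27. The causes were not tested. Member counts per library ran from 4, for Pf4 in wild-type pool 3, to 496, for Csf1r, and low counts limit precision for Pf4, Cd14 and Tlr2.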
